A study of Mus musculus with 8 samples.

Results

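AP-1 is a family of transcription factors that bind DNA as dimers through a basic region followed by a leucine zipper. This account covers 10 of its genes and close relatives, listed by gene name, a family chosen with earlier results of these data known. Counts of members beside shares of all genes are therefore descriptions. The genes are Fos, Fosb, Fosl1 and Fosl2 of the Fos family and Jun, Junb and Jund of the Jun family. Atf3, Batf and Maff are related genes. All 10 were among the 24421 genes of the count table, and all 10 passed the expression filter that left 14468 genes for testing. They were measured by bulk RNA-seq in 8 MC38 tumors grown in female B6 Kaede mice that were 9 weeks old, with 4 mice per group. MC38 is a colon carcinoma line of the mouse, and Kaede is a protein whose fluorescence turns from green to red under violet light. Tumor cells were injected into each mouse. On day 10, when tumors were about 5 mm across, 4 tumors were exposed to violet light of 405 nm for 3 min (photoconverted), and 4 tumors had no light exposure (control). All tumors were taken 5 h after that time point. Both groups thus carry the same Kaede transgene and the same graft and differ in light exposure, and the study made the comparison to learn whether photoconversion itself alters cells of the tumor.

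Many AP-1 genes are immediate early genes, which are transcribed within minutes of a growth factor, cytokine or stress signal without new protein synthesis. Fos proteins cannot pair with one another and need a Jun partner, whereas Jun proteins can pair with themselves. In tumors, AP-1 dimers are known to drive genes of cytokines and matrix proteases, and in T cells they act together with NFAT. Batf and Atf3 can compete with Fos for Jun partners.

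The DNA before the start sites of 4 members is shown because these genes had the largest fold changes (Atf3 and Fosb), are the founding member of the family (Fos), or held the full TGACGTCA element (Maff). Each line gives the 100 bases before a RefSeq start (build GRCm38.p6), 5′ to 3′ on the strand of the gene, and capitals mark TGACG, the half-site of the cyclic AMP response element, or its reverse complement, and in Maff the whole element TGACGTCA. TGACG is no part of the AP-1 element TGANTCA. The windows lie at chr12:85473790-85473889 (plus strand) for Fos, chr7:19310046-19310145 (minus strand) for Fosb, chr1:191183334-191183433 (minus strand) for Atf3 and chr15:79347420-79347519 (plus strand) for Maff.
Fos: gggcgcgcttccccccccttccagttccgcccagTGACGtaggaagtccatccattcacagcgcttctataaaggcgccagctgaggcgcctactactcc
Fosb: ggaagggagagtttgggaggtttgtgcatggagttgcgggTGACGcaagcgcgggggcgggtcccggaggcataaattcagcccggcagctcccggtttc
Atf3: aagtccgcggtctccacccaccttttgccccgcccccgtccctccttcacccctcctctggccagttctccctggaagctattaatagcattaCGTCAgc
Maff: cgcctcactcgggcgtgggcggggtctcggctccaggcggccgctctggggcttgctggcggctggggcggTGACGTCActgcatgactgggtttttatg

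RefSeq windows were found for 9 of the 10 members (11 windows, since Maff had several start sites). The window of Jund (chr8:70697489-70697738, plus strand) ends before the GENCODE start of that gene at 70698949. The bases just before that GENCODE start were not searched, so the lack of matches in Jund covers only the RefSeq window. In the 250 bases before the start, on both strands, TGANTCA was matched in 0 members and in 6.75% of all 32851 windows of mouse genes. The cyclic AMP response element TGACGTCA was matched in 1 member (Maff) and in 1.55% of all windows. In Maff it lay only before the start site shown above, not before its other start sites. Members were counted once, whereas the shares are of windows. The heat shock half-element pair GAANNTTC was matched in 2 members (Jun and Fosl2) and in 6.69% of all windows, and the CArG box of serum response factor in 0 members and 1.47% of windows. TGACG, a motif added after these sequences were seen and contained in TGACGTCA, was matched in 6 members (Fos, Fosb, Junb, Atf3, Batf and Maff) and in 17.8% of all windows. These matches are letters in a fixed window and describe neither binding nor its absence.

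Total counts lay between 12576615 and 35844417 per tumor, and 2.70% to 35.7% of them fell on Rn45s, the precursor of ribosomal RNA. Photoconverted tumor 4 (21.9%), control tumor 2 (35.7%) and control tumor 4 (23.2%) had a share above 10%. They also had the lowest total counts (16735293, 12576615 and 19496945), so tumors above and under 10% differ in depth as well. The other 5 tumors, photoconverted tumors 1 to 3 and control tumors 1 and 3, had a share under 10%. Photoconverted tumor 2, at 9.65%, lay close to that limit. Values are also given within these 5 tumors, a choice made with earlier results of these data known. Levels are CPM, each library's counts scaled to a fixed total after TMM normalization, which sets libraries to a common scale. Epithelial markers of a colon carcinoma (Krt8, Krt18, Krt19, Epcam and Cdh1) summed to only 2.14 to 5.37 CPM per tumor, whereas 4 leukocyte genes summed to 173 to 431 CPM and 5 fibroblast genes to 3180 to 12400 CPM, the highest in control tumor 2. In bulk tumors, a change in the number of cells of a type and a change in RNA per cell cannot be told apart.

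AP-1 transcripts were higher on average in photoconverted tumors in 9 of 10 genes, against 46.8% of all genes tested, but no gene of the family passed the test. Across all 14468 genes, the quasi-likelihood test of edgeR, with p-values adjusted by Benjamini-Hochberg, called 0% (adjusted p under 0.05), and it called 0 of the 10 members. DESeq2's Wald test called 0.144% of the genes to which it gave an adjusted p, and limma called 0 genes, with neither calling a member. At an unadjusted p under 0.05 there were 322 genes in edgeR, 569 in DESeq2 and 262 in limma. Among the 322 genes of edgeR were 3 members (Fosb, Fosl2 and Atf3), all higher in photoconverted tumors, where 1.65% of all genes were higher at that level. Those of DESeq2 held 4 members and those of limma 2. DESeq2 was run on all 24421 genes without the expression filter, so its total has another base than those of edgeR and limma. With the replicate number as a block, 5 members were higher at an unadjusted p under 0.05, against 4.38% of all genes, and 0 had an adjusted p under 0.05. The median log2 fold change was 0.43 over the 10 members and -0.01 over all genes tested.

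**Figure D1:**
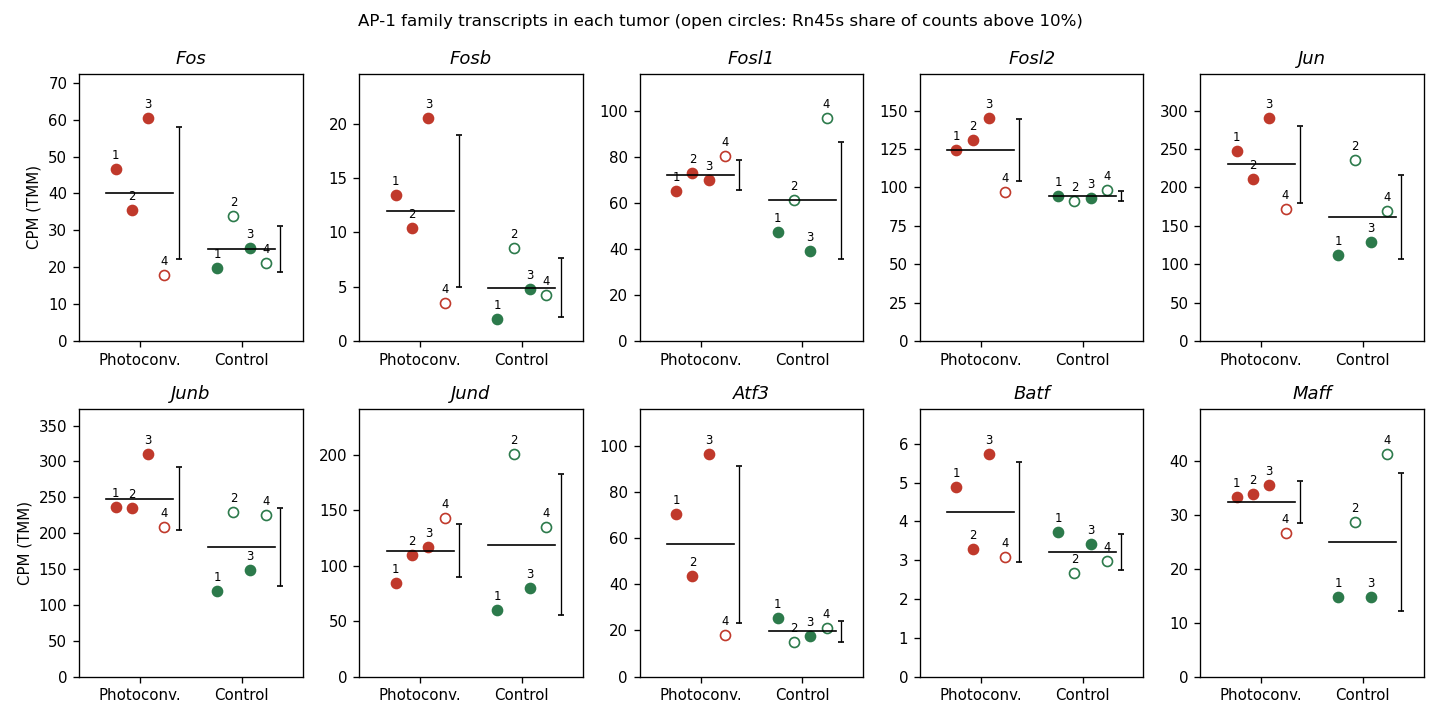
CPM of the 10 genes (y axes, linear, starting at 0) in 4 photoconverted (red) and 4 control (green) tumors, with replicate numbers above the points, group means as horizontal lines and SD as bars. Open circles are the 3 tumors with an Rn45s share above 10%; photoconverted tumor 4 lies lowest of its group in 8 of the 10 panels.

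Atf3 had the largest fold change of the family. It encodes a stress-inducible bZIP factor of the ATF/CREB group that often represses transcription, and it lies at chr1:191170296-191218039 (minus strand, GENCODE M21 on GRCm38). Photoconverted tumors 1 to 4 had 70.6, 43.8, 96.7 and 18.0 CPM of Atf3, and control tumors 1 to 4 had 25.4, 14.8, 17.5 and 20.9 CPM. Photoconverted tumors 1, 2 and 3 were thus above every control tumor, whereas photoconverted tumor 4 was below 2 of the 4 controls. Means were 57.3 ± 33.9 CPM and 19.6 ± 4.61 CPM (SD, n = 4 each), or 1296 ± 766 and 444 ± 105 in the normalized counts the authors deposited. The log2 fold change was 1.54 (standard error 0.44), with an unadjusted p of 0.00614 and an adjusted p of 0.999 in edgeR. In DESeq2 the unadjusted p was 0.000404 and the adjusted p was 0.178, and over all alternatives the adjusted p of Atf3 lay between 0.0912 and 1.

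Fos and Fosb encode the inducible Fos proteins that carry a transactivation domain. Fos (chr12:85473890-85477273, plus strand) had 46.6, 35.6, 60.4 and 17.9 CPM in photoconverted tumors 1 to 4 and 19.7, 33.8, 25.1 and 21.2 CPM in control tumors 1 to 4. The lowest of all 8 values was that of photoconverted tumor 4, and the other photoconverted tumors were above every control, with control tumor 2 close behind. On the log2 scale the difference of Fos was 0.69 (standard error 0.34, adjusted p = 0.999 in edgeR), and it was 0.43 without photoconverted tumor 3. Fosb (chr7:19302696-19310051, minus strand) had 13.4, 10.4, 20.5 and 3.55 CPM in photoconverted tumors and 2.03, 8.56, 4.83 and 4.21 CPM in controls. As in Fos, photoconverted tumors 1 to 3 were above every control and control tumor 2 was the highest control, whereas photoconverted tumor 4 was below 3 of the 4 controls. The log2 fold change of Fosb was 1.33 (standard error 0.54), and the unadjusted p of 0.0357 in edgeR became 0.999 after adjustment.

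Fosl1 and Fosl2 encode Fra-1 and Fra-2, Fos relatives that lack that transactivation domain. Fosl2 (chr5:32135801-32157842, plus strand) varied least of the family on the log2 scale, at 124, 131, 145 and 96.8 CPM in photoconverted tumors and 94.3, 91.4, 93.4 and 98.6 CPM in control tumors. Control tumor 4, at 98.6 CPM, was the only control above the lowest photoconverted tumor, number 4. Means were 124 ± 20.2 CPM and 94.4 ± 3.01 CPM (SD, n = 4 each), the controls lying within a narrow range. The log2 fold change of Fosl2 was 0.40 (standard error 0.13, unadjusted p = 0.0148, adjusted p = 0.999 in edgeR). Fosl1 (chr19:5447547-5455946, plus strand) had 65.0, 73.1, 69.7 and 80.5 CPM in photoconverted tumors and 47.3, 61.3, 39.1 and 96.7 CPM in controls. Its highest value was in control tumor 4, which lay above all photoconverted tumors, and its mean differed by a log2 fold of 0.24 (standard error 0.25, adjusted p = 0.999 in edgeR). Without control tumor 4 the 2 groups of Fosl1 did not overlap (2.40% of all genes) and its log2 fold change was 0.55, whereas it was 0.13 without control tumor 1 and 0.074 without control tumor 3. Fosl1 overlaps Ccdc85b on the opposite strand, and whether reads were counted by strand is not given in the sources used here.

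The Jun family supplied the most abundant transcripts. Jun (chr4:95049034-95052222, minus strand), the main partner of Fos, had 247, 211, 290 and 172 CPM in photoconverted tumors 1 to 4 and 112, 235, 129 and 169 CPM in controls. Control tumor 2 was the exception among controls, above photoconverted tumors 2 and 4, and without it the groups of Jun did not overlap (1.49% of all genes). Junb (chr8:84974484-84978718, minus strand), which is likewise inducible, had 237, 235, 311 and 209 CPM in photoconverted tumors and 120, 229, 149 and 225 CPM in controls. Control tumors 2 and 4 lay above photoconverted tumor 4 and below the other 3. The log2 fold changes were 0.51 (standard error 0.25) for Jun and 0.46 (standard error 0.23) for Junb, and edgeR gave both an adjusted p of 0.999. The annotated span of Junb overlaps Prdx2, and that of Jun overlaps the antisense gene Junos.

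Jund, the Jun gene that is expressed in resting cells, was the only member with a lower mean in photoconverted tumors. It lies at chr8:70698949-70700616 (plus strand) and had 84.1, 110.0, 117 and 143 CPM in photoconverted tumors 1 to 4 and 60.1, 201, 79.7 and 135 CPM in controls. Its highest value was in control tumor 2, and photoconverted tumor 4 was the highest rather than the lowest of its group. Between group means the log2 fold change of Jund was -0.07 with a standard error of 0.35 (adjusted p = 0.999 in edgeR). Its sign depended on the fit, since the log2 fold change was 0.07 with the replicate block, 0.31 without control tumor 2, 0.05 without photoconverted tumor 1 and 0.00199 without control tumor 4. Jund overlaps the antisense gene Gm11175.

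Maff encodes a small Maf protein, which has no transactivation domain and pairs with CNC and Bach factors. Maff (chr15:79346621-79359076, plus strand) had 33.3, 33.8, 35.4 and 26.6 CPM in photoconverted tumors and 14.8, 28.6, 14.8 and 41.3 CPM in controls. The photoconverted tumors lay close together at 32.3 ± 3.90 CPM (SD, n = 4), and the controls were spread around them at 24.9 ± 12.7 CPM (SD, n = 4). For Maff the log2 fold change came to 0.39, with a standard error of 0.32 (adjusted p = 0.999 in edgeR), and was 0.20 without control tumor 1 or control tumor 3 and 0.75 without control tumor 4. Batf (chr12:85686669-85709087, plus strand), a factor of lymphocytes and dendritic cells, was the member with the fewest counts, 25 to 195 per tumor. It had 4.88, 3.28, 5.75 and 3.08 CPM in photoconverted tumors and 3.74, 2.68, 3.41 and 2.99 CPM in controls, so the groups overlapped, and the log2 fold change came to 0.40, with a standard error of 0.26 (adjusted p = 0.999 in edgeR). Without photoconverted tumor 3 the log2 fold change of Batf was 0.22.

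**Figure D2:**
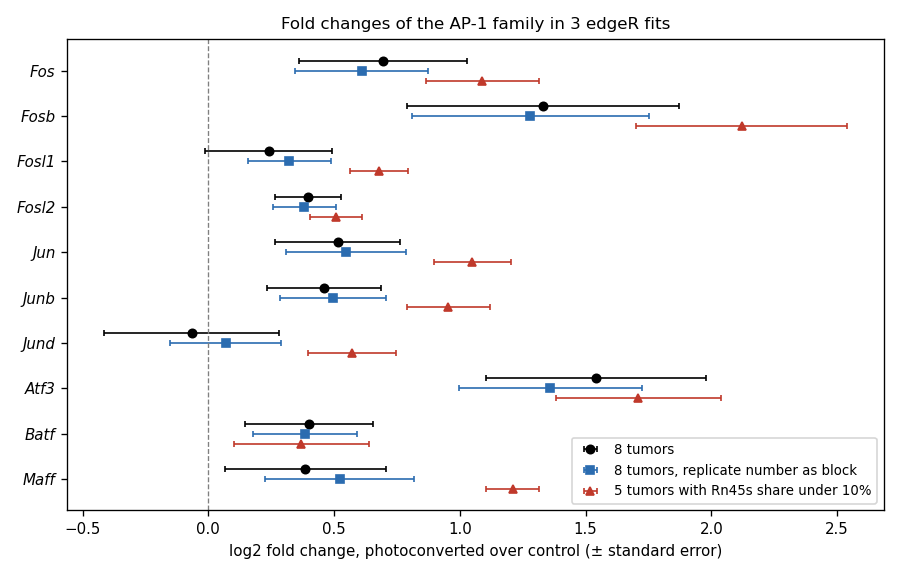
Log2 fold change of photoconverted over control tumors (x axis, points) with standard errors (bars) for each gene in 3 edgeR fits: all 8 tumors (black), all 8 with the replicate number as a block (blue), and the 5 tumors below 10% Rn45s (red). Jund is at -0.07, 0.07 and 0.57 in the 3 fits, and Atf3 and Fosb are the farthest right in each.

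The groups overlapped in all 10 members, whereas 0.684% of all genes tested had every photoconverted tumor above every control. Photoconverted tumors 1, 2 and 3 were above all controls in 5 members (Fos, Fosb, Fosl2, Junb and Atf3), against 3.83% of all genes tested. Photoconverted tumor 4 had the lowest value of its group in 8 of 10 members, in which it reached 0.241 (Fosb) to 0.801 (Junb) of the mean of photoconverted tumors 1 to 3. It was the lowest of its group in 40.6% of all genes. Photoconverted tumor 3 was the highest of all 8 tumors in 7 of 10 members. Control tumor 2 was the highest control in 5 members and control tumor 4 in 3. For these counts of photoconverted tumor 3 and of the controls, no share of all genes was computed.

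Between tumors with the same replicate number, the photoconverted tumor had more transcript in 10 of 10 members in pair 1 (50.8% of all genes), in 8 of 10 in pair 2 (50.4%), in 10 of 10 in pair 3 (48.7%) and in 3 of 10 in pair 4 (49.8%). The differences for Atf3 on the log2 CPM scale were 1.47, 1.56, 2.46 and -0.21 in pairs 1 to 4. For Fosb they were 2.68, 0.28, 2.07 and -0.24. Pair 4 joins photoconverted tumor 4 with control tumor 4, both of which had a high Rn45s share. Batf was the only member higher in the photoconverted tumor in all 4 pairs, by 0.04 to 0.74 on the log2 CPM scale.

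Within the 5 tumors below 10% Rn45s, all 10 members had a higher mean in photoconverted tumors, and the share of all genes was not computed. The 3 photoconverted tumors lay above both controls in 9 of 10 members, all but Batf, against 14.0% of all genes tested. Mean levels of these 3 and 2 tumors were 70.4 and 21.4 CPM for Atf3, 14.8 and 3.43 CPM for Fosb, 47.5 and 22.4 CPM for Fos, and 34.2 and 14.8 CPM for Maff. The edgeR fit of these 5 tumors called 0.275% of the genes it tested, among them 1 member. That member was Maff, with a log2 fold change of 1.21 (standard error 0.11, adjusted p = 0.0101 in edgeR). Jun followed with a log2 fold change of 1.05 (adjusted p = 0.058 in edgeR). The median over the 10 members was 1.00, against 0.003 over all genes of this fit. The tumors left out of this fit were those that made the groups overlap most. Photoconverted tumor 4 was the lowest of its group in 8 of 10 members (40.6% of all genes). Control tumor 2 was the highest control in 5 members and control tumor 4 in 3. The counts, the median and the call of Maff thus depend on which tumors were left out and are descriptions. In the 3 tumors with a high share, photoconverted tumor 4 was below both controls in 4 members (Fos, Fosb, Junb and Maff), between them in 5, and above both in 1 (Batf). A single photoconverted tumor allows no test there, and shares of all genes for these counts were not computed.

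**Figure D3:**
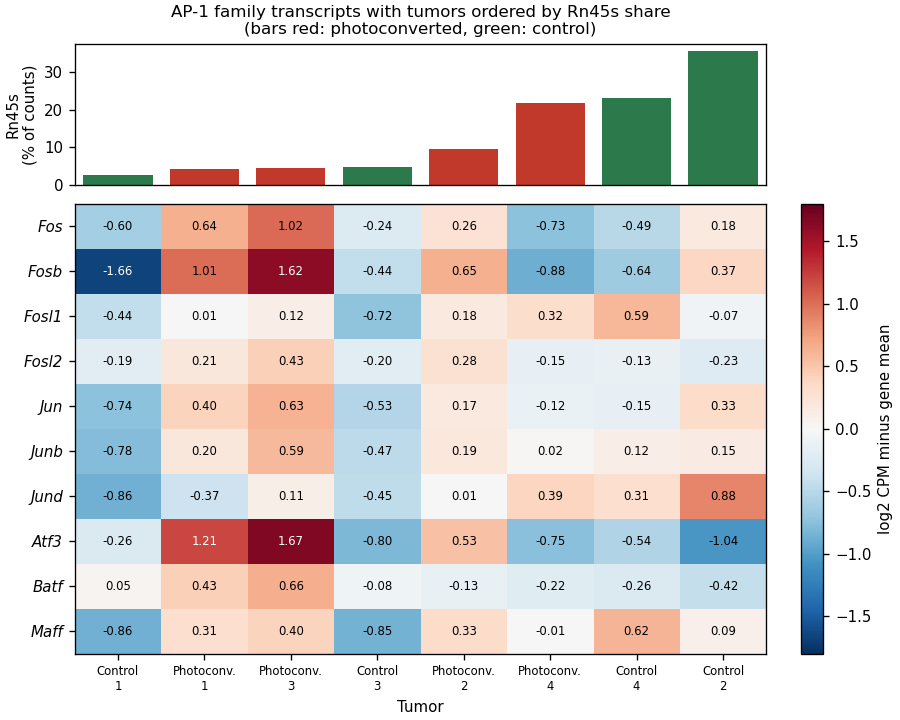
Top, share of counts on Rn45s (percent, bars) in each tumor, ordered from lowest to highest. Bottom, log2 CPM of each gene minus its mean over the 8 tumors (color and printed value). Atf3 reaches 1.67 in photoconverted tumor 3 and -1.04 in control tumor 2, whereas Jund reaches 0.88 in control tumor 2.

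Marker sums for neutrophils and skeletal muscle were also highest in photoconverted tumors 1 to 3. The 7 neutrophil markers, all higher on average in photoconverted tumors, summed to 66.3, 79.6 and 115 CPM in photoconverted tumors 1 to 3, to 21.0 CPM in photoconverted tumor 4 and to 18.7 to 30.6 CPM in controls. The 8 skeletal muscle markers, also all higher on average, summed to 458, 772, 1530 and 179 CPM in photoconverted tumors and to 181 to 450 CPM in controls. All 6 keratinocyte markers were higher on average as well, at 1.63, 16.5, 18.6 and 1.03 CPM in sum against 1.06 to 3.06 CPM. Sums for macrophages (404 to 922 CPM against 310 to 805 CPM) and T cells (7.93 to 16.0 CPM against 4.58 to 17.2 CPM) overlapped between the groups, as did those for adipocytes (5 of 5 markers higher on average, 66.0 to 118 CPM against 62.4 to 89.8 CPM) and endothelium (4 of 4 higher on average, 82.8 to 149 CPM against 73.7 to 124 CPM). Of the 55 listed markers, 47 were tested and 0 of these were called in edgeR. The untested ones included 4 of the 6 keratinocyte markers and 3 of the 5 epithelial ones. No listed marker found in the table was at 0 in all tumors. The part of these cell types, and of the Rn45s share, in the AP-1 values was not tested.

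Per kilobase of exon, Junb, Jund and Jun were the most abundant members, at 93.2 ± 25.3, 69.7 ± 26.6 and 61.4 ± 19.1 CPM per kilobase (mean ± SD over 8 tumors). Fosl1 (32.8 ± 8.94), Atf3 (17.9 ± 14.0), Fos (13.8 ± 6.32), Fosl2 (11.3 ± 2.15) and Maff (11.0 ± 3.69) came next on that scale. Batf (2.65 ± 0.75) and Fosb (1.35 ± 0.995) were lowest in CPM per kilobase. Neighbors in this order overlapped over the 8 tumors in every case except Maff and Batf, which were apart. Within single tumors, Jun was above Fosl1, Maff above Batf and Batf above Fosb in all 8, and Junb above Jund in 7. The other neighbors kept this order in 4 to 6 of the 8 tumors. The order differed between the groups. Atf3 was in place 5 of 10 in photoconverted tumors, at 26.6 ± 15.8 CPM per kilobase (SD, n = 4), above Fos at 17.1 ± 7.64. In control tumors it stood at 9.12 ± 2.14 (SD, n = 4), below Fos (10.6), Fosl2 (9.75) and Maff (9.58), in place 8 of 10. Jun (72.2) stood above Jund (68.1) in photoconverted tumors and below it in controls (50.6 and 71.4 CPM per kilobase). These differences in order were not tested.

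**Figure D4:**
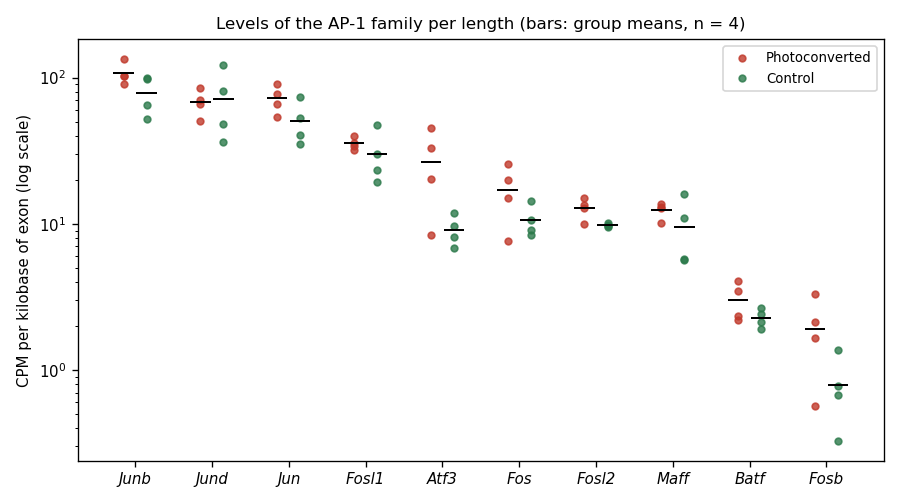
TMM-normalized CPM per kilobase of exon (y axis, log scale) of each gene in photoconverted (red) and control (green) tumors, points being tumors and bars group means. Genes are ordered by their mean over 8 tumors, from Junb at 93.2 to Fosb at 1.35 CPM per kilobase.

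Jun and Junb were the most similar members. The root mean square difference of their log2 CPM values over the 8 tumors, each centered at its mean, was 0.146, and the least similar members were Jund and Atf3 (1.19). Among all genes tested with at least 0.5 times the SD of the member, those nearest to Fos by this measure were Sema6a (0.155), Pdcd1, the gene of PD-1 (0.166), and Dusp1, a MAP kinase phosphatase (0.201). Nearest to Jun were the chromatin remodeler gene Chd7 (0.142), Junb (0.146) and the cytokine gene Lif (0.156). Nearest to Atf3 were the HSP40 gene Dnajb1 (0.226), the platelet chemokine gene Ppbp (0.236) and the alarmin gene Il33 (0.268). Dnajb1 had 317, 210, 571 and 76.9 CPM in photoconverted tumors and 86.8, 65.3, 93.4 and 85.5 CPM in controls, the same contrast of photoconverted tumors 1 to 3 with the rest as in Atf3. Ppbp was low, with at most 1.98 CPM and as few as 2 counts. Pdcd1 and Sema6a were also low, with as few as 50 and 53 counts. The nearest genes were picked from 6945 candidates for Fos, 9226 for Jun and 3093 for Atf3, over only 8 tumors. How close genes would lie by chance was not tested.

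Genes around AP-1 were described from 3 lists, which were written with earlier results of these data known. Of 19 bZIP partners and relatives, 12 were higher on average and 7 lower in photoconverted tumors. The median over the list was a log2 fold change of 0.06. Of all genes tested, 46.8% were higher, and the median over all of them was -0.01. None passed the test, and 0 reached an unadjusted p under 0.05 in edgeR (2 were higher at that level with the replicate block, against 4.38% of all genes). The genes with the smallest p were Crem, a cyclic AMP response gene (log2 fold change 0.61, unadjusted p = 0.123, adjusted p = 0.999 in edgeR), Batf2 (0.34) and Bach1 (0.31). The upstream list held 18 genes, of kinases, ternary complex factors and serum response factor. Of these, 11 were higher and 7 lower, with a median of 0.03. In edgeR, 0 passed the test and 1 was higher at an unadjusted p under 0.05, where 1.65% of all genes were higher. In this list, Map2k3, a kinase that activates p38, was the only gene whose groups did not overlap (0.684% of all genes), with 124, 130.0, 129 and 108 CPM in photoconverted tumors and 87.4, 101, 93.7 and 106 CPM in controls. Its log2 fold change was 0.34 (standard error 0.11, unadjusted p = 0.0134, adjusted p = 0.999 in edgeR), and Map2k4 (0.28) and Map3k8 (0.40) followed.

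Of 20 genes known as AP-1 targets, 19 were higher and 1 (Vegfa) lower in photoconverted tumors, against 46.8% higher among all genes. As this list was written with earlier results of these data known, its counts are descriptions and no test against all genes. The median log2 fold change was 0.29, and 0 passed the test in edgeR, with 3 higher at an unadjusted p under 0.05 (1.65% of all genes), or 8 with the replicate block (4.38%). These were Il6, Il1b and Ptgs2, which encode 2 inflammatory cytokines and cyclooxygenase 2. Il1b had 70.0, 56.1, 91.0 and 20.2 CPM in photoconverted tumors and 28.2, 20.7, 37.6 and 21.1 CPM in controls. Photoconverted tumor 4 was again the lowest of all 8, and the log2 fold change came to 1.14, with a standard error of 0.40 (adjusted p = 0.999 in edgeR). Ptgs2 had 112, 47.9, 106 and 40.5 CPM in photoconverted tumors and 59.8, 21.3, 34.7 and 38.1 CPM in controls (log2 fold change 0.99, adjusted p = 0.999 in edgeR). Il6 had 202, 153, 197 and 5 counts in photoconverted tumors and 31, 2, 23 and 10 counts in controls, with a log2 fold change of 2.73 (standard error 0.73, adjusted p = 0.999 in edgeR). Without photoconverted tumor 4, Il6 was called (log2 fold change 3.09, adjusted p = 0.039 in edgeR). Among the 5 tumors below 10% Rn45s, Il6 (2.78, adjusted p = 0.0195 in edgeR) and Plaur, the urokinase receptor gene (0.81, adjusted p = 0.0291 in edgeR), were called. Over all 8 tumors the log2 fold change of Plaur was 0.14, with a standard error of 0.31.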

How the data were processed

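For each tumor the authors deposited unnormalized counts by gene symbol and a table of normalized signal values, which equaled the raw counts divided by 1 DESeq2 size factor per tumor. The submitters' processing notes list CASAVA, FastQC, Trim Galore, HISAT2, featureCounts and DESeq2 and the build mm10; versions and annotation are not given in the sources used here. The library kit is a SMARTER stranded one per the labels and a TruSeq one in the methods of the study. The letter in each label gave the column of that tumor.

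The test was that of edgeR 4.0.16 on the raw counts (TMM, filterByExpr, glmQLFit and glmQLFTest, Benjamini-Hochberg over 14468 genes, threshold 0.05) in R 4.3.3. DESeq2 1.42.0 and limma 3.58.1, on log2 of the normalized values plus 1, were alternatives, with others for normalization, filter, dispersion, an Rn45s covariate, the 5 tumors with a share under 10%, and each tumor left out. Log2 CPM values had a prior count of 2. Procedures were tested on simulated data. Exon lengths and loci came from GENCODE M21, and start sites from RefSeq.

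Replicate numbers 1 to 4 in the labels were shared by the groups. Deviations from the group means correlated between same-numbered tumors with r of 0.107 to 0.623 (mean 0.433, across genes, which are not independent), against up to 0.482 between tumors of different numbers, and 5 of 8 tumors correlated best with their own number. The labels state no pairing. As every same-numbered r was over 0.1, tumors of the same number were also compared as pairs, and a fit with the block is given where it changed a count. The main edgeR test had no block, so its p-values take no account of such pairs.

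The family and the gene lists were chosen with earlier results of these data known. Named genes were all 10 members, the 3 genes with the smallest p of each pathway list, any of these past a test, and the 3 genes most like Fos, Jun and Atf3. Vegfa, Plaur and the genes of the motif TGACG were named after their values or sequences were seen. Proteins were not compared. Total counts limit the precision of low genes such as Batf, Ppbp and Il6.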

Additional observations from a re-analysis of the deposited data

Results flagged for a closer look

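In 54 groups of 4 tumors, 2 had a tumor far from the others by Dixon's ratio, where chance gives about 1 in 20 groups, or 2.7. Both concerned control tumor 4 and genes of the pathway lists, not AP-1 genes. Bach1 had 39.5 CPM in control tumor 4, against 61.2 CPM in the nearest control. Map3k8 had 5.25 CPM there, against 9.31 CPM in the nearest control.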

How the results depend on the processing

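Of 180 recomputed log2 fold changes of the 10 genes, 172 kept their direction and their side of the threshold, and 1 (Maff in 5 tumors) passed it. The other 7 were sign changes of Jund, to 0.065 with limma, 0.069 with the replicate block, 0.20 with the Rn45s covariate, 0.57 in the 5 tumors below 10% Rn45s, and, leaving out 1 tumor at a time, within the range -0.29 to 0.31 (positive without photoconverted tumor 1, control tumor 2 or control tumor 4). In those 5 tumors 42 genes in all, 1 member and 2 listed genes were called, and 9 members had groups that did not overlap. Fewer tumors were compared, 3 with 2, and those left out held most of the lowest photoconverted and highest control values of the members. DESeq2 called 24 genes in all, and the cause was not tested. With each tumor left out, edgeR called 0 to 11 genes in all, the 11 without photoconverted tumor 4, 0 members, and 0 to 1 listed genes. Members with groups that did not overlap then numbered 0 to 5, which were 5 without photoconverted tumor 4 (3.83% of all genes), 1 without control tumor 2 (1.49%) and 2 without control tumor 4 (2.40%). The replicate block called 0 genes, as did the fit without it (869 and 322 at an unadjusted p under 0.05), and changed no other call. With the longest transcript as length, 8 of 10 members kept their place by level, and Fos and Fosl2 changed places.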

Other observations

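Per kilobase of exon, the 10 genes summed to 347, 336, 437 and 309 CPM per kilobase in photoconverted tumors 1 to 4 and to 185, 369, 210.0 and 327 in control tumors 1 to 4. Of that sum, 66.6% to 74.6% came from the Jun family in photoconverted tumors and 66.6% to 79.6% in controls, the highest share being that of control tumor 2. The Fos family made up 17.9% to 19.7% in photoconverted and 15.0% to 22.5% in control tumors. The share of Atf3, Batf and Maff together was 14.1%, 10.6%, 14.3% and 6.73% in the 4 photoconverted tumors, against 5.36% to 10.9% in controls. These shares are descriptions of the same values and were not tested.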
